A study of Mus musculus with 16 samples.

Results

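The transcripts described here are 10 core genes of the Notch pathway, chosen by symbol from the 24063 genes of both deposited tables: the receptors Notch1, Notch2 and Notch3, the ligands Dll1, Jag1 and Jag2, the fringe enzyme Lfng, and the Hes and Hey family genes Hes1, Hes6 and Hey1. RNA came from AtT-20 cells, a mouse pituitary corticotrope tumour line grown in DMEM with 10% FBS, in 16 libraries of 6 groups. Neo control cells carry a FLAG-tagged Neo construct and Pax7 cells a FLAG-tagged Pax7, each untreated and in 2 libraries. ER-Pax7 cells carry a FLAG-tagged fusion of Pax7 with an oestrogen receptor part that 4-hydroxytamoxifen activates, and were sequenced without the compound (0 h) and after 12, 24 and 96 h of it, with 3 libraries at each time. The labels do not say how many separately made Neo or Pax7 populations were sequenced. In comparing Neo with Pax7 cells, Pax7 cannot be told apart from whatever else distinguishes the populations. The 12, 24 and 96 h groups have no counterpart treated with the compound but lacking ER-Pax7, so ER-Pax7 activation and other effects of the compound or of time in culture cannot be told apart. Whether replicates came from separate cultures is not in the labels, and p-values then reflect only how far these libraries spread, which may be technical.

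Notch receptors are single-pass membrane proteins that bind Delta-like and Jagged ligands on neighbouring cells. Binding lets an ADAM protease and then gamma-secretase cut the receptor, and the freed intracellular domain joins the DNA-binding protein Rbpj and Maml coactivators on target genes, of which Hes1 and Hey1 encode transcriptional repressors. Fringe enzymes add sugars to the receptors and so change which ligands they respond to. In the developing pituitary the pathway is known for keeping progenitors undifferentiated, and Pax7 is known as the pioneer factor behind the identity of melanotropes, which like corticotropes make pro-opiomelanocortin (Pomc).

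ER-Pax7 values are scaled exon reads (reads over a gene's exons, scaled by the authors to 1 common library total), and Neo and Pax7 values are FPKM over the whole gene body, introns included. Levels are therefore never compared between the tables. Counted reads came to between 61.4 M and 88.7 M per ER-Pax7 library (M, mega) and to an estimated 44.2 M to 54.7 M per Neo or Pax7 library. The 45S ribosomal RNA precursor Rn45s took 2.35% of replicate 2 at 12 h and 0.753% to 1.26% of the other ER-Pax7 libraries. Pax7 was listed at 0 and 0.01 FPKM in Neo and at 2.39 and 2.38 FPKM in Pax7 cells, and stood between 1653 and 1911 scaled exon reads in all 12 ER-Pax7 libraries. Pomc, the defining corticotrope transcript, was at 2396 to 2471 FPKM in Neo and 2390 to 2447 FPKM in Pax7 cells. In ER-Pax7 cells its mean went from 92682 scaled exon reads at 0 h to 75069 at 24 h (limma adjusted p = 2.14e-04) and 91095 at 96 h. The corticotrope markers Crhr1, Pitx1 and Neurod1 were lower in Pax7 than in Neo cells (limma adjusted p = 0.0142, 0.0443 and 0.0289), while Tbx19 was not called. Prl of lactotropes was listed at 0 in every library, but Lhb of gonadotropes was at 0.27 to 0.32 FPKM in Neo and 0.22 to 0.37 FPKM in Pax7 cells. In bulk RNA, fewer cells of a type and less RNA per cell cannot be told apart.

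The pathway was unevenly represented in uninduced ER-Pax7 cells, with abundant Hes6, Jag2 and Lfng and almost no Jag1 or Notch3. Per kilobase of exon at 0 h, the levels in scaled reads were 766 ± 42.4 for Hes6, 342 ± 11.7 for Jag2, 326 ± 10.4 for Lfng, 42.6 ± 1.33 for Notch2, 35.2 ± 1.39 for Hes1, 33.0 ± 1.74 for Hey1, 4.50 ± 0.710 for Dll1, 1.06 ± 0.108 for Notch1, 0.104 ± 0.0515 for Notch3 and 0.0213 ± 0.0370 for Jag1 (mean ± SD, n = 3). In this order the ranges of mean ± SD overlapped for the neighbouring pairs Jag2 and Lfng, and Hes1 and Hey1, although their means differed by more than either SD. Notch2 was thus the most abundant of the 3 receptors by read level per kilobase, and Jag2 the most abundant of the 3 ligands. By 96 h the levels per kilobase were 301 ± 11.7 for Jag2 and 198 ± 2.34 for Lfng, and 31.7 ± 2.04 for Hey1 and 22.0 ± 1.14 for Hes1. In both pairs the ranges of mean ± SD no longer overlapped, and differences between genes were not tested.

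**Figure D1:**
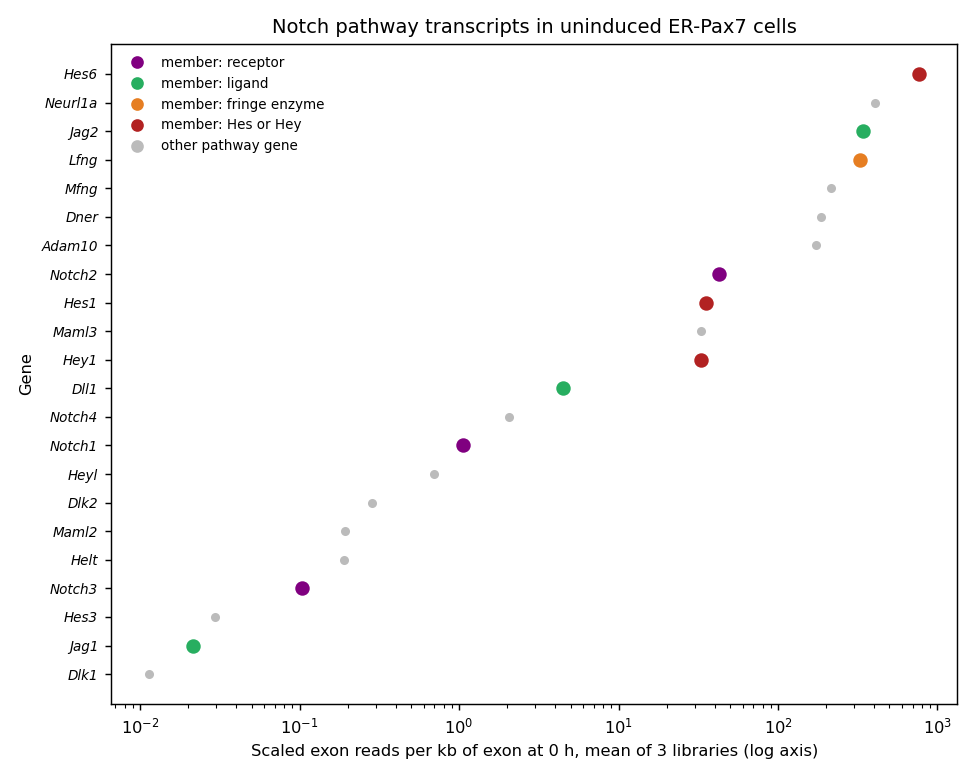
Mean level at 0 h of the 10 Notch members (coloured by role) and of other pathway genes named in the text (grey), in scaled exon reads per kilobase of exon on a log axis, over 3 libraries of ER-Pax7 cells without 4-hydroxytamoxifen. Hes6 (766), Jag2 (342) and Lfng (326) stand near the top and Jag1 (0.0213) near the bottom; Hey2, listed at 0 in all 3 libraries, is not drawn.

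Lfng and Dll1 had the largest fall and the largest rise of the members at 96 h of ER-Pax7 activation, and their promoters are therefore shown. RefSeq promoter windows (GRCm38.p6) were found for 8 of the 10 genes, and were missing for Hes1 and Hey1. Each is printed 5′ to 3′ on the gene's strand, with capitals marking matches on either strand to TGGGAA, the core bound by Rbpj, and CACGNG, a site of Hes and Hey proteins. The Lfng window is chr5:140607091-140607390 (plus strand) and that of Dll1 is chr17:15375774-15376073 (minus strand).
Lfng: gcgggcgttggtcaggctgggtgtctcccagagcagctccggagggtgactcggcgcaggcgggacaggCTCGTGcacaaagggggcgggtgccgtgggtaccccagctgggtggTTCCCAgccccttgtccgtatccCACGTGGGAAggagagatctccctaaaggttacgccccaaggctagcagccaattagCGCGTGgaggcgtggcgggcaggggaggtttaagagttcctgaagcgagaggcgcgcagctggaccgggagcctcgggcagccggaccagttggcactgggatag
Dll1: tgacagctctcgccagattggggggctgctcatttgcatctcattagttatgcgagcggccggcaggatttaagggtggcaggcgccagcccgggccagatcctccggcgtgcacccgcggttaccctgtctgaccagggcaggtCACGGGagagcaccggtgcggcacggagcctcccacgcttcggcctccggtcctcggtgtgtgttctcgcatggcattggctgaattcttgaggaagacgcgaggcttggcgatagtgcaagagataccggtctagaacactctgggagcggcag
The Lfng window held 2 TGGGAA matches, at -135 and -108 from the start site, and CACGNG matches at -181, -112 and -55, the one at -112 reading CACGTG on both strands and overlapping a TGGGAA match. The printed Dll1 window, at the start of the counted transcript, held no TGGGAA and 1 CACGNG match, at -105. RefSeq lists another Dll1 window 1109 bases away (chr17:15376883-15377182), which held no TGGGAA and 1 CACGNG match, at -68 from its own start site. Of 32851 RefSeq promoter windows of this length, 25.6% held TGGGAA and 27.5% held CACGNG. The homeodomain motif TAATTA, found in 5.29% of those windows, and the paired-type dimer motif (TAAT and ATTA with 3 bases between them), found in 0.487%, were not in either printed window.

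Notch2 had the most reads of the receptors, and it was lower in Pax7 than in Neo cells and lower at 12 h than at 0 h of ER-Pax7 activation. Notch2 (NM_010928, mm10 chromosome 3, 98013538 to 98150367, plus strand) was at 0.31 and 0.29 FPKM in Neo and at 0.22 and 0.20 FPKM in Pax7 cells. These 4 values did not overlap between the groups, and the log2 difference was -0.42 (SE 0.059, limma adjusted p = 0.0130). That call was lost when any 1 of the 4 libraries was left out, with adjusted p-values from 0.0531 to 0.0634. In ER-Pax7 cells Notch2 was at 431, 458 and 449 scaled exon reads at 0 h, 383, 403 and 400 at 12 h, 437, 418 and 374 at 24 h, and 414, 409 and 409 at 96 h. All 12 h and 96 h libraries stood below all 0 h libraries, while 1 library of 24 h lay inside the 0 h range. The log2 differences from 0 h were -0.18 at 12 h (limma adjusted p = 0.0255), -0.14 at 24 h (adjusted p = 0.0508) and -0.12 at 96 h (adjusted p = 0.0502), so the later differences narrowly missed the 0.05 threshold that the 12 h difference passed. The 12 h call was lost without replicate 2 or 3 of 0 h, and without replicate 1 or 3 of 12 h, with adjusted p up to 0.129. The 96 h difference was called under 6 of 17 alternatives, among them the replicate block (adjusted p = 0.0359), edgeR (0.0478) and DESeq2 (0.0476) on the recovered reads, and the 24 h difference under 4 of 17.

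Notch1 (NM_008714, chromosome 2, 26457902 to 26503822, minus strand), the receptor best known from T cell development, ranged from 9.11 to 11.9 scaled exon reads across the 12 ER-Pax7 libraries (78 to 124 reads), with overlapping groups. Its log2 difference at 96 h was 0.09 (95% interval -0.20 to 0.38). In Neo it was listed at 0.01 and 0.02 FPKM and in Pax7 cells at 0.02 and 0.03 FPKM, below the filter for testing. Notch3 (NM_008716, chromosome 17, 32120893 to 32166852, minus strand), a receptor known from vascular smooth muscle, rested on 1 to 13 reads per ER-Pax7 library and was listed at 0 FPKM in all Neo and Pax7 libraries. At this depth its interval at 96 h, -0.93 to 0.24 on the log2 scale, covers changes of both signs.

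Dll1 rose at every time of ER-Pax7 activation and was higher in Pax7 than in Neo cells. It encodes the Delta-like ligand known from somite segmentation and neurogenesis (NM_007865, chromosome 17, 15367354 to 15375823, minus strand). ER-Pax7 libraries held 14.7, 18.1 and 13.3 scaled exon reads at 0 h, 24.3, 24.8 and 22.2 at 12 h, 27.8, 27.3 and 30.7 at 24 h, and 23.7, 27.2 and 29.0 at 96 h. Every library after 4-hydroxytamoxifen was above every 0 h library. The rise from 0 h was 0.60 on the log2 scale at 12 h (SE 0.118, limma adjusted p = 0.00212), 0.85 at 24 h (adjusted p = 3.11e-05) and 0.76 at 96 h (adjusted p = 4.28e-05). Mean levels thus went from 15.4 ± 2.43 to 28.6 ± 1.80 scaled exon reads by 24 h (SD, n = 3), resting on 125 to 292 reads per library. Between 12 and 24 h the difference was 0.24 (95% interval -0.003 to 0.49) and between 24 and 96 h -0.09 (-0.34 to 0.16), neither past the threshold. In the other table Dll1 was at 0.18 FPKM in both Neo libraries and at 0.37 and 0.40 FPKM in Pax7 cells. The ratio of mean FPKM was 2.14, and the difference of log2(FPKM + 0.1), which understates a change at this low level, was 0.74 (SE 0.072, limma adjusted p = 0.00652).

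Of the Jagged ligands, Jag2 fell slightly by 96 h and Jag1 was barely detected. Jag2 (NM_010588, chromosome 12, 112908590 to 112929495, minus strand) had 1419, 1383 and 1325 scaled exon reads at 0 h, 1340, 1295 and 1287 at 12 h, 1316, 1306 and 1235 at 24 h, and 1265, 1198 and 1175 at 96 h. Its 96 h libraries were all below those of 0 h, and the fall of 0.19 on the log2 scale passed the test (log2 difference -0.19, limma adjusted p = 5.89e-04). At 24 h the difference was -0.12 (adjusted p = 0.0448), a call that 10 of 17 alternative settings lost. In Neo and Pax7 cells Jag2 was at 9.73 and 9.52 against 10.1 and 9.95 FPKM. The deposited Pax7 values were the higher ones, yet the log2 difference after TMM scaling was -0.01 (95% interval -0.09 to 0.07), so its sign there depends on the scaling. Jag1 (NM_013822, chromosome 2, 137081451 to 137116520, minus strand), a ligand known from blood vessels and bile ducts, was listed at 0 FPKM in all 4 Neo and Pax7 libraries and had 0 to 4 reads in each ER-Pax7 library. In the 4 ER-Pax7 libraries with 0 reads, the limit that a count of 0 allows (3 reads) is 0.244 to 0.353 scaled exon reads, which like all such limits here covers counting error only.

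Lfng fell at 24 h and again by 96 h, the member with the smallest p-value over the 4 times. It encodes Lunatic fringe, the glycosyltransferase known from the segmentation clock (NM_008494, chromosome 5, 140607341 to 140615545, plus strand). Its scaled exon reads were 765, 743 and 717 at 0 h, 692, 655 and 723 at 12 h, 638, 638 and 622 at 24 h, and 455, 445 and 450 at 96 h. The ranges of 0 and 12 h overlapped, all 24 h libraries were below both, and all 96 h libraries were below those of 24 h. Against 0 h the log2 differences were -0.11 at 12 h (limma adjusted p = 0.112), -0.25 at 24 h (adjusted p = 1.26e-04) and -0.72 at 96 h (SE 0.039, adjusted p = 9.52e-12). Most of that fall came after 24 h, with a log2 difference of -0.48 between 24 and 96 h (adjusted p = 5.66e-08). In Neo cells Lfng was at 7.54 and 7.14 FPKM and in Pax7 cells at 6.50 and 6.78 FPKM. The groups did not overlap, and the log2 difference of -0.21 (SE 0.049, limma adjusted p = 0.0378) passed the threshold narrowly. It did not pass without Neo replicate 1, Neo replicate 2 or Pax7 replicate 1 (adjusted p = 0.111, 0.0913 and 0.110) or on the deposited scaling (adjusted p = 0.0988).

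**Figure D2:**
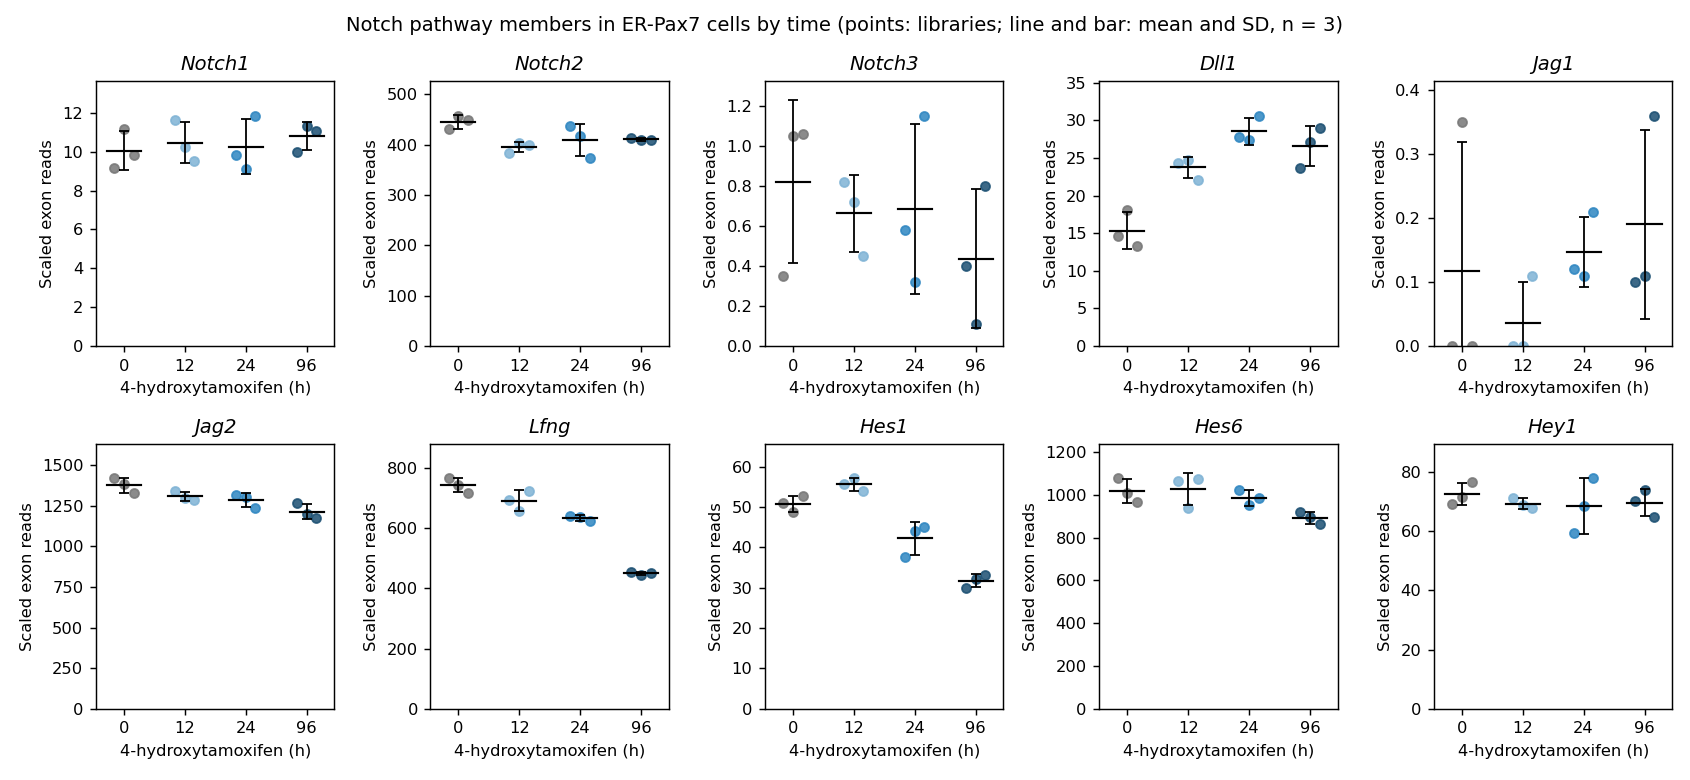
Scaled exon reads of the 10 members in ER-Pax7 cells against hours of 4-hydroxytamoxifen, 1 panel per gene with an axis from 0; points are libraries, and lines and bars are the mean and SD of 3. The 96 h libraries of Lfng (445 to 455) and Hes1 (30.02 to 33.3) lie below all earlier ones, the libraries of Dll1 after 0 h lie above those of 0 h, and Notch3 and Jag1 rest on few reads.

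Of the Hes and Hey genes, Hes1 and Hes6 fell by 96 h of ER-Pax7 activation, while Hes1 and Hey1 were higher in Pax7 than in Neo cells. Hes1, the repressor most widely used as a readout of Notch activity (NM_008235, chromosome 16, 30065357 to 30067796, plus strand), had 51.0, 48.8 and 52.8 scaled exon reads at 0 h, 55.7, 57.2 and 54.1 at 12 h, 37.6, 44.2 and 45.1 at 24 h, and 30.02, 32.2 and 33.3 at 96 h. The 12 h libraries stood above all 0 h libraries, those of 24 h below them, and those of 96 h below those of 24 h. The log2 difference from 0 h was 0.12 at 12 h (limma adjusted p = 0.557), -0.28 at 24 h (adjusted p = 0.0338) and -0.67 at 96 h (SE 0.087, adjusted p = 4.61e-06). The 24 h call was lost without replicate 1 or 3 of 0 h or replicate 1 of 24 h, with adjusted p up to 0.193 over all alternatives. From 24 to 96 h Hes1 fell by 0.38 on the log2 scale (log2 difference -0.38, adjusted p = 0.00514). Between 12 and 24 h the difference was -0.41 (95% interval -0.59 to -0.22), which did not pass after adjustment over all genes (adjusted p = 0.0684) but did in DESeq2 on the recovered reads (adjusted p = 0.00439).

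In the other table Hes1 was the higher in Pax7 cells, with 3.27 and 2.91 FPKM in Neo and 4.02 and 4.00 FPKM in Pax7 cells. The groups did not overlap, and the log2 difference was 0.30 (SE 0.052, limma adjusted p = 0.0201). This call was lost without Pax7 replicate 1 or 2, with adjusted p-values of 0.0660 and 0.0878. Of the progenitor markers, Sox9 moved as well: it was at 0.14 and 0.16 FPKM in Neo and 0.28 and 0.30 FPKM in Pax7 cells (limma adjusted p = 0.0109), where Sox2 went the other way, from 3.12 and 3.13 FPKM in Neo to 2.69 and 2.84 FPKM in Pax7 cells (adjusted p = 0.0142). Sox9 was at 17.0 ± 2.53 scaled exon reads at 0 h and 38.9 ± 1.41 at 96 h (SD, n = 3; limma adjusted p = 1.12e-07). In the same cells Sox2 went from 76.1 ± 2.22 scaled exon reads at 0 h to 59.5 ± 3.69 at 96 h (limma adjusted p = 5.66e-04). The part of progenitor-like cells in the Hes1 values was not tested.

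Hey1, another Notch-responsive repressor (NM_010423, chromosome 3, 8663359 to 8667038, minus strand), had the largest difference among the members between Pax7 and Neo cells. It was at 2.96 and 2.70 FPKM in Neo and 7.32 and 7.70 FPKM in Pax7 cells, a ratio of means of 2.65 that rested on an estimated 577 to 1537 reads per library. The log2 difference was 1.31 (SE 0.060, limma adjusted p = 0.00214) and stayed past the threshold without any 1 library. In ER-Pax7 cells Hey1 was at 69.1, 71.6 and 76.6 scaled exon reads at 0 h, 71.1, 68.8 and 67.7 at 12 h, 59.2, 68.3 and 77.8 at 24 h, and 70.2, 73.7 and 64.8 at 96 h. These ranges all overlapped. At 96 h the log2 difference was -0.06 (95% interval -0.24 to 0.12, limma adjusted p = 0.613). Whether the 2 systems differ in Hey1 was not tested, since their values come from separately made tables.

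Hes6, a family member that is known to oppose Hes1 in neural progenitors (NM_019479, chromosome 1, 91411483 to 91413222, minus strand), was at 1078, 1010 and 966 scaled exon reads at 0 h, 1067, 940 and 1072 at 12 h, 1025, 951 and 986 at 24 h, and 921, 895 and 865 at 96 h. Only the 96 h libraries were all below those of 0 h. The log2 difference was -0.19 at 96 h (limma adjusted p = 0.00408), against 0.01 at 12 h (adjusted p = 0.973) and -0.06 at 24 h (adjusted p = 0.467). In Neo and Pax7 cells Hes6 was at 64.1 and 64.9 against 67.9 and 65.0 FPKM. The log2 difference after TMM scaling was -0.03 (95% interval -0.13 to 0.07), and its sign changed under other settings.

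**Figure D3:**
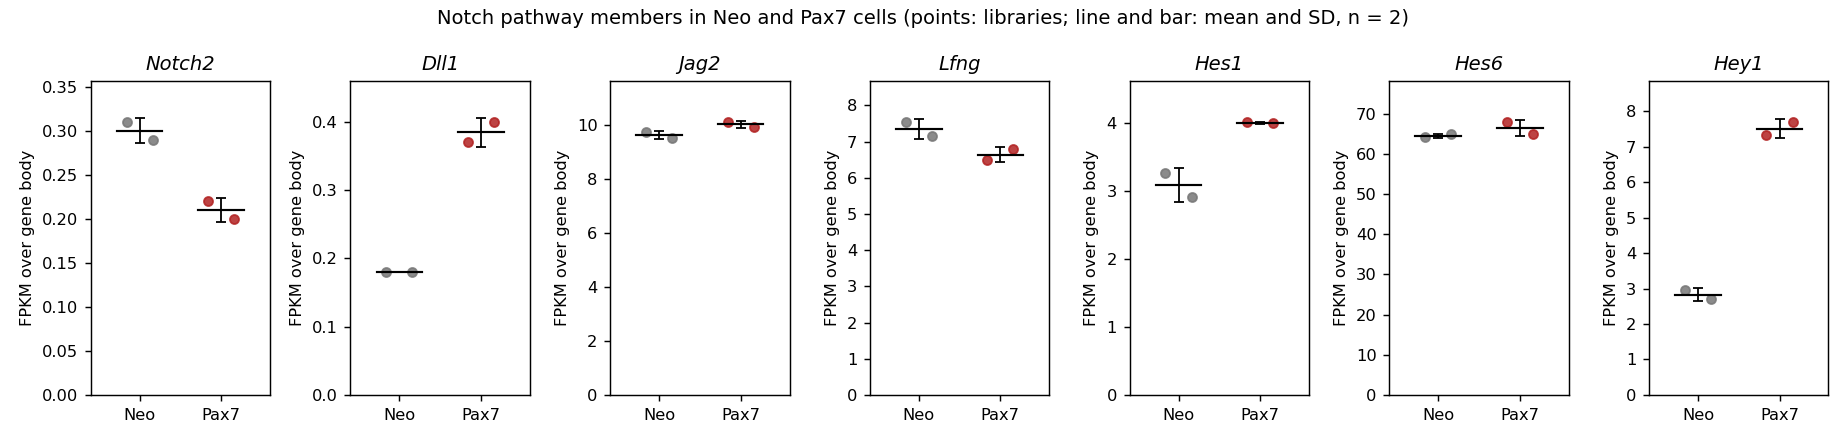
FPKM over the gene body of the 7 tested members in Neo and Pax7 cells, 1 panel per gene with an axis from 0; points are libraries, and lines and bars are the mean and SD of 2. Hey1 (2.70 and 2.96 against 7.32 and 7.70) and Dll1 (0.18 against 0.37 and 0.40) stand highest in Pax7 relative to Neo, and Notch2 and Lfng are lower.

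Counted together, 3 of the 7 members tested for Pax7 against Neo were higher (Dll1, Hes1, Hey1) and 2 lower (Notch2, Lfng) by limma, where 36.7% of all genes tested were called (18.5% higher, 18.2% lower). With any 1 library left out, 2 to 3 of these 5 members were called. In the authors' deposited table none of the 10 members had an FDR under 1 for this comparison, Hey1 included, whose log2 fold there was 1.29. The deposited log2 fold was exactly 0 for Notch1, Notch2, Notch3, Dll1, Jag1 and Jag2, although the FPKM of Notch2, Dll1 and Jag2 differed between the groups. Whether the authors tested those genes is therefore not known. At 12 h against 0 h, 1 of 9 members was higher and 1 lower, against 6.49% of all genes (2.79% higher, 3.71% lower). At 24 h, 1 was higher and 3 lower (Jag2, Lfng, Hes1), against 13.5% of all genes (5.47% higher, 8.07% lower). At 96 h, 1 was higher and 4 lower (Jag2, Lfng, Hes1, Hes6), against 33.7% of all genes (16.3% higher, 17.4% lower), and the median log2 difference of the members was -0.19 beside 0.00 over all genes. The 96 h libraries against those of 24 h gave 2 lower members (Lfng, Hes1), against 12.7% of all genes (6.16% higher, 6.54% lower). No member was called by limma between 12 and 24 h, where 0.171% of all genes were (0.0724% higher, 0.0988% lower). There 2 members had an unadjusted p under 0.05, edgeR on the recovered reads called 0 and DESeq2 called 1. Over the 4 times, 6 of 9 members changed by limma (Notch2, Dll1, Jag2, Lfng, Hes1, Hes6), against 30.3% of all genes. Groups that do not overlap were common among all genes tested: 69.0% of genes for Pax7 against Neo, 20.3%, 28.8% and 46.0% for 12, 24 and 96 h against 0 h, 14.0% for 24 h against 12 h and 30.4% for 96 h against 24 h. The comparisons with 0 h share the 0 h libraries, so their calls are not independent of each other.

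**Figure D4:**
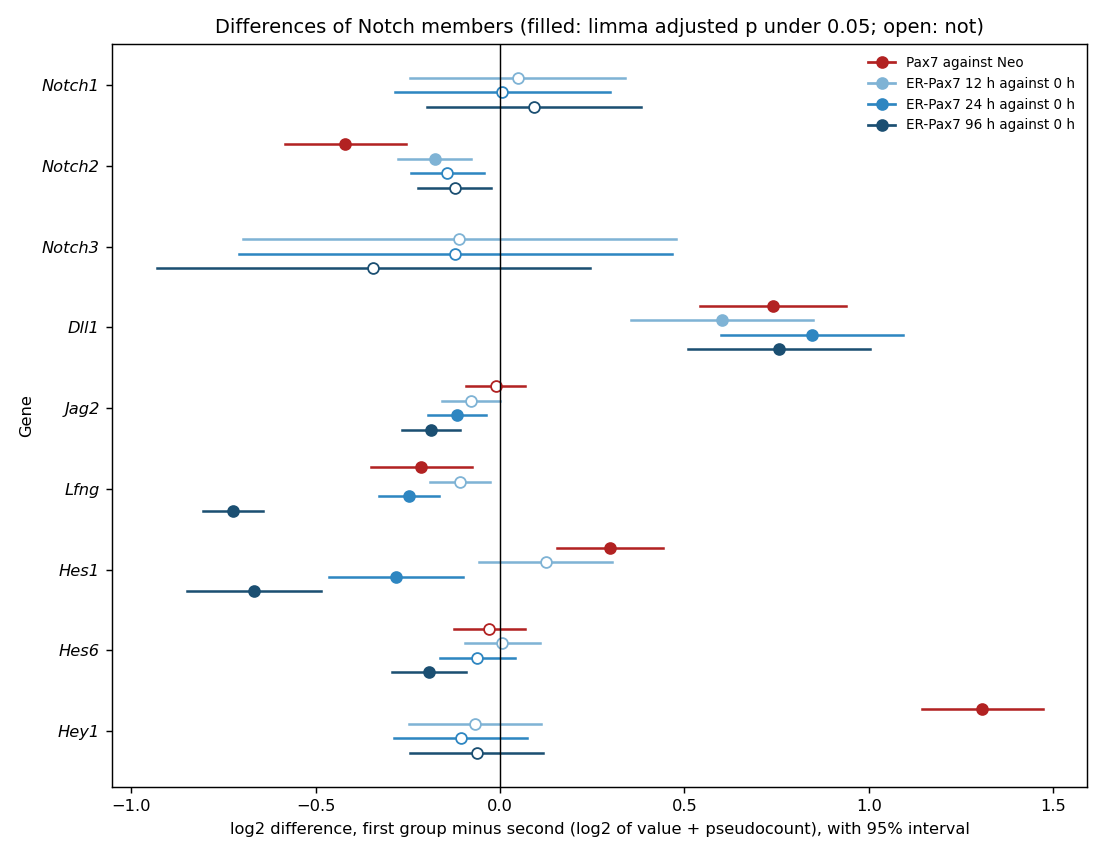
Log2 differences with 95% intervals of the tested members for Pax7 against Neo and for ER-Pax7 at 12, 24 and 96 h against 0 h; filled points passed limma's adjusted threshold and open points did not. Dll1 lies above 0 in all 4 comparisons, Lfng reaches -0.72 at 96 h, and Hes1 (0.30 and -0.67) and Hey1 (1.31 and -0.06) differ in position between Pax7 against Neo and 96 h against 0 h.

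A further 42 genes cover the rest of the pathway, from other ligands to proteases, coactivators and feedback genes. For Pax7 against Neo, 9 of the 35 tested rose and 3 fell, beside the 18.5% higher and 18.2% lower among all genes. Hes3 is counted among the 35 and the 9, although only its Pax7 libraries brought it past the filter. The processing protease Adam10, which makes the first cut of a bound receptor, was at 0.55 and 0.53 FPKM in Neo and 1.05 and 0.99 FPKM in Pax7 cells (log2 difference 0.74, limma adjusted p = 0.00276). Neurl1a, a ubiquitin ligase that acts on ligands, was at 7.01 and 6.80 against 9.46 and 9.02 FPKM (0.34, adjusted p = 0.00483). Hes3, a Hes family repressor, was listed at 0 and 0.01 FPKM in Neo and at 0.16 FPKM in both Pax7 libraries. It passed the filter only through the Pax7 libraries, so its values are given without a test, and it stood below the filter in ER-Pax7 cells. Manic fringe, Mfng, was lower in Pax7 cells, at 2.85 and 2.79 FPKM against 3.30 and 3.14 (-0.25, adjusted p = 0.00993). With any 1 library left out, 3 to 7 of the 35 genes were called in place of 12. The Mfng call was lost without Pax7 replicate 1 (adjusted p = 0.0584) and on the deposited scaling (adjusted p = 0.0524).

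In ER-Pax7 cells, 4 of 37 tested pathway genes were higher and 0 lower at 12 h, 6 were higher and 2 lower at 24 h, and 8 were higher and 7 lower at 96 h. Over all genes, 6.49%, 13.5% and 33.7% were called at these times. Adam10 rose from 797 ± 89.3 scaled exon reads at 0 h to 965 ± 42.0 at 12 h and 1032 ± 51.6 at 96 h (SD, n = 3; log2 difference at 96 h 0.37, limma adjusted p = 5.21e-05). Maml3, a coactivator of the Notch intracellular domain, went from 215 ± 5.29 to 301 ± 8.23 scaled exon reads by 96 h (0.48, adjusted p = 5.51e-07). Dner, an atypical ligand of neurons, fell from 669 ± 22.5 to 471 ± 21.3 scaled exon reads (log2 difference -0.51, adjusted p = 6.36e-08). Mfng rose from 392 ± 12.0 scaled exon reads at 0 h to 506 ± 18.7 at 12 h and was at 438 ± 16.4 at 96 h (0.15 at 96 h, adjusted p = 0.00892). Relative to 0 h, Mfng was thus higher and Lfng lower at 96 h, while from 24 to 96 h both fell (Mfng by 0.21 on the log2 scale, log2 difference -0.21, adjusted p = 0.00303). Between 24 and 96 h 4 of these genes fell, where 6.54% of all genes were lower, and between 12 and 24 h none was called by limma (3 at an unadjusted p under 0.05), where 0.171% of all genes were. Dlk1, Dlk2, Helt, Hes3 and Hey2 were below the filter in ER-Pax7 cells. Dlk1, Dlk2, Helt, Hey2, Heyl, Maml2 and Notch4 were below it in Neo and Pax7 cells.

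Across the 12 ER-Pax7 libraries the genes most like the 3 members of smallest p over time were found by Pearson's r of log2 values, among 10674 or 10675 genes with a mean of at least 50 scaled exon reads. Lfng was most like Ncs1 and Ddc (both r = 0.99) and Igfbp5 (r = 0.98). The genes most like Hes1 included Sgol2 (r = 0.97) and Kif23 (r = 0.96), and Dll1 was most like Lin9 and Gnb3 (both r = 0.95) and Ncald (r = 0.94). Mean scaled exon reads of Ddc, the aromatic amino acid decarboxylase, went from 3805 at 0 h to 2106 at 96 h, and those of Igfbp5 from 1317 to 731. The mitotic kinesin Kif23 went from 694 at 0 h to 572 at 96 h. These correlations describe 12 libraries that share 4 time points, and the 3 genes were picked as the highest of all those compared.

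Endothelial and immune cells also use several of these genes, so their markers were read beside them. The 5 endothelial markers summed to 2.54 to 6.34 scaled exon reads over the ER-Pax7 libraries and to 0.04 to 0.10 FPKM in both Neo and Pax7 cells, where Cdh5 was listed at 0. The 4 immune markers summed to 0.22 to 0.23 FPKM in Neo and 0.38 to 0.50 FPKM in Pax7 cells, through Cd68 (limma adjusted p = 0.0193), with 2 of the 4 at 0 in all libraries of each group. In ER-Pax7 cells that sum was 9.64 to 12.0 scaled exon reads at 0 h and 8 to 11.3 at 96 h. The fibroblast sum was 23.5 to 32.0 scaled exon reads at 0 h and 17.5 to 23.6 at 96 h. It was mostly Col1a1 (mean 24.7 at 0 h and 18.1 at 96 h, limma adjusted p = 0.0140). Pdgfra was not called, and 2 of the 4 fibroblast markers were at 0 in all libraries of both groups. The 3 melanotrope markers, which include the prohormone convertase Pcsk2, summed to 179 to 192 scaled exon reads at 0 h and 603 to 666 at 96 h. In Neo they summed to 0.07 to 0.08 FPKM and in Pax7 cells to 2.12 to 2.17 FPKM. In each of these groups 1 of the 3 was at 0 in all libraries, so the list did not rise as a whole. The part of these cell types in the Notch values was not tested.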

How the data were processed

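Per the labels' protocols, ribosome-depleted total RNA was sequenced in 50 bp paired-end reads. Per the submitters' processing notes, the build was mm10 (GRCm38) and the tools were TopHat, HOMER and edgeR, with no version. For ER-Pax7 the authors counted reads over exons, and deposited them as signal values, in which each library was scaled to 1 common total, per the file headers. For Neo and Pax7 the authors deposited FPKM over gene bodies, per the file headers. Deposited log2 fold changes of the authors' own comparisons, with their deposited p-value and FDR columns, served only for comparison. Counting named no strand option, so overlapping genes cannot be told apart: Mir6996 lies within Notch1 and Mir6941 within Jag2, and RefSeq models overlap Notch1, Notch2, Notch3 and Hey1. Among the other pathway genes given with values, Mir5126 overlaps Dner, and RefSeq models overlap Adam10, Maml3 and Neurl1a.

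Samples were grouped by their labels, and every deposited sample column was mapped (0 were not). Whole reads came back from the ER-Pax7 values (100% within 0.1 reads). FPKM rounded to hundredths did not give back whole reads for most genes, so no count test was run on that table. Genes at or above 1 scaled exon read in 3 libraries (15188) or 0.1 FPKM in 2 (13393) were tested. After division by TMM factors (edgeR 4.0.16) and addition of a pseudocount (1 scaled read or 0.1 FPKM), limma 3.58.1 with trend (R 4.3.3) was fitted to log2 values, all 12 ER-Pax7 libraries together. Benjamini-Hochberg adjustment ran over all genes tested, at a threshold of 0.05. Printed levels are deposited values. An exact permutation test, whose smallest p is 0.1 for 3 against 3 libraries and 0.333 for 2 against 2, was not used. The scripts were tested on simulated data.

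The members, the 42 other pathway genes and the marker lists were chosen with earlier results of these data known. All 10 members are named; of the other pathway genes, the 4 of smallest adjusted p in Pax7 against Neo and in 96 h against 0 h and those below the filter; and for the 3 members of smallest p over time, the 3 genes of highest r. Some genes given by these rules are not reported here. Mfng and Adam10 values at other times, and the marker genes singled out, were added after their values were seen. Alternatives were other scalings, pseudocounts and filters, a replicate block, limma without trend, each library left out, only the groups compared, and edgeR and DESeq2 1.42.0 on the recovered reads. Deviations from the group means of same-numbered libraries correlated above 0.1 in all 3 pairs for 0 and 12 h (0.165 to 0.333), 0 and 96 h (0.131 to 0.351) and 12 and 96 h (0.104 to 0.297), but not in every pair that involves 24 h, where the lowest was -0.23, nor between Neo and Pax7 (0.036). The 0, 12 and 96 h libraries therefore tended to pair by replicate number, by the data and not by the labels. Between libraries of different number the highest value was 0.352, for replicate 1 of 12 h and replicate 3 of 24 h. The main tests did not use the pairing, and a value with the replicate block is given where it changes a call. Promoters are RefSeq windows of GRCm38.p6.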

Additional observations from a re-analysis of the deposited data

Results flagged for a closer look

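Of the members and other pathway genes, 3 were called in opposite directions by Pax7 against Neo and by 96 h against 0 h of ER-Pax7, with every library of the first comparison on 1 side and every library of the second on the other. Hes1 had log2 differences of 0.30 and -0.67, Mfng of -0.25 and 0.15, and Neurl1a of 0.34 and -0.12, in that order. Over all genes tested, 36.7% were called for Pax7 against Neo and 33.7% for 96 h against 0 h. The share of all genes called in opposite directions was not counted, so whether 3 is many for these lists is not known. The differences between the systems were not tested, since the tables were made and scaled separately, over gene bodies in one and exons in the other. Hes1 in Pax7 against Neo was not called without Pax7 replicate 1 or without Pax7 replicate 2, and Mfng was not called there without Pax7 replicate 1 (adjusted p = 0.0584). At 96 h, without replicate 3 of 96 h, neither Mfng (adjusted p = 0.0569) nor Neurl1a (adjusted p = 0.0806) was called.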

How the results depend on the processing

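All called members kept their direction under every alternative run. For Pax7 against Neo, 5 members were called, against 3 with a filter of 0.5 FPKM, 3 with a replicate block, and 2 to 3 with 1 library left out. Dll1 and Hey1 were called under each alternative run that tested them. For 12 h against 0 h, 2 were called, against 1 with no filter on low values, 1 without trend and 1 to 2 with a library left out. For 24 h against 0 h, 4 were called, against 2 with no filter, 2 with only the 2 groups compared in the fit, and 3 without any 1 library. For 24 h against 12 h, 0 were called, against 1 with the replicate block, 1 with DESeq2 and 0 without any 1 library. With a library left out, 5 to 6 members were called for 96 h against 0 h, 2 for 96 h against 24 h and 4 to 6 over the 4 times. In the 17 alternatives, Dll1 at 12, 24 and 96 h, Lfng at 24 and 96 h, and Jag2, Hes1 and Hes6 at 96 h stayed called, Dll1 at 12 h also without the replicate 2 library of high Rn45s. The cause of the other changes was not tested. In the authors' deposited edgeR comparisons with 0 h, Dll1 (FDR 0.564) and Notch2 (0.158) at 12 h did not pass 0.05. Neither did Jag2 (0.202) and Hes1 (0.924) at 24 h, nor Hes1 from 24 to 96 h (0.486). Dll1 and Lfng at 24 h, and Dll1, Jag2, Lfng, Hes1 and Hes6 at 96 h, did pass there. The replicate block also brought Notch2 past the threshold at 24 h (adjusted p = 0.0335) and 96 h (0.0359), Hes1 from 12 to 24 h (0.0420) and Hes6 from 24 to 96 h (0.0216), and Lfng (0.0756) and Hes1 (0.0543) were not called with it in Pax7 against Neo. The block changed no other member's call. It was fitted by number to all 12 ER-Pax7 libraries, although the 24 h libraries did not correlate by number in every pair. Calls gained with it in comparisons that involve 24 h therefore rest on a pairing that the correlations do not bear out throughout. Over all genes, Pax7 against Neo gave 2482 higher and 2435 lower, but 2600 and 1241 on the deposited scaling, and 2001 to 2928 in all without 1 library. Depth limits Notch3 and Jag1, at most 13 and 4 reads per ER-Pax7 library. Rounding to hundredths limits low FPKM values, and edgeR on reads recovered from FPKM was not run.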
